A study of Homo sapiens with 12 samples.

Results

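The difference between VCaP-T and VCaP-CT cells in their response to testosterone (T) was measured gene by gene. The response of a line was the log2 ratio of its level at 10 nM T to its level at 0.1 nM T, and the VCaP-CT response was subtracted from the VCaP-T response. A called gene had a difference with an adjusted p under 0.01 and a size over 1 on the log2 scale. Of 19162 genes tested, 108 were called, which is 0.564%. All 12 libraries of the series entered the test.

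VCaP is an established prostate cancer cell line from a bone metastasis that carries the TMPRSS2-ERG fusion. VCaP-T is a subclone established over 7 months with 10 nM T in charcoal-stripped serum, and VCaP-CT is a subclone obtained from VCaP-T after 10 months at 0.1 nM T. Both had been in culture for 20 months when used. Polyadenylated RNA was sequenced from 4 groups of 3 libraries, namely VCaP-T kept at 10 nM T, VCaP-T given 0.1 nM T for 48 h (depletion), VCaP-CT kept at 0.1 nM T, and VCaP-CT given 10 nM T for 48 h (rechallenge). VCaP-T had reached passage 84 and VCaP-CT passage 73. The low level was therefore the short one in VCaP-T and the high level the short one in VCaP-CT, so the line and the order and duration of the T levels cannot be told apart. Each line is a single long-term culture, and the sources do not say whether replicates were separate cultures, so p-values measure the spread between these libraries, which may be technical.

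Testosterone and its product dihydrotestosterone act on transcription through a nuclear hormone receptor. In prostate epithelium they raise secreted and membrane proteases such as KLK3 and TMPRSS2, metabolic enzymes and the cochaperone FKBP5, and lower other genes. Cells selected at low androgen often keep androgen signaling, and the genes that such cells switch on at a given hormone level can differ from those of the parental cells.

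The libraries held 30.2 to 40.8 M counted fragments. Replicate 2 of depleted VCaP-T stood apart. Its log2 levels correlated with those of its sisters at r of 0.9653 and 0.9695 across genes, where the other pairs within groups had r of 0.9933 to 0.9951, and 12.6% of 14601 genes lay over 2-fold from the sisters' mean, where in the other libraries 0.0137% to 1.99% did. Its deviations fell with exon length (r = -0.42 across genes). Without it, 234 of 19649 genes were called (1.19%), 94 of the 108 among them. The other 14 kept an adjusted p under 0.01 with a difference of 1 or less in size, and none of the 108 changed sign. The part of this library in each result was not tested beyond its removal, which is given below wherever it ended a call. Among luminal prostate markers all 12 were measured in the test, whereas 7 of 12 fibroblast and smooth muscle, 4 of 8 endothelial and 8 of 10 blood cell markers had 10 or fewer counts in each library. Of 8 basal markers 5 passed the count filter of the test, and 2 had 10 or fewer counts in each library. KRT5 had at most 2 raw counts, NGFR at most 8 and TP63 at most 11, and DST had the highest means. Of 10 neuroendocrine markers 7 passed the filter, and 3 had 10 or fewer counts in each library.

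The responses of the lines ran together across most genes. Over the 1327 genes called in at least 1 line on its own response (631 in VCaP-T, 3.29%, and 1056 in VCaP-CT, 5.51%), the responses had a Pearson r of 0.775, and over all genes tested r was 0.605. Genes are not independent replicates, and the median difference over all genes was -0.01. Of 360 genes called in both lines, 356 moved the same way, and 267 of the 360 had the larger response in VCaP-CT. Of the 108 genes called on the difference, 86 (0.449% of the genes tested) had a difference below 0 and 22 (0.115%) above 0. By the adjusted p alone 185 genes passed (0.965%), 154 of them below 0 (0.804%) and 31 above 0 (0.162%). With the fold threshold and without depleted VCaP-T replicate 2, 168 genes were called below 0 (0.855%) and 66 above 0 (0.336%).

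The 108 genes fell into 5 classes by the adjusted p of each line's own response. In 13 genes the lines moved in opposite directions. In 29 genes both moved the same way with the larger response in VCaP-CT, 18 with more RNA at 10 nM T and 11 with less. In 3 genes both had less RNA at 10 nM T with the larger response in VCaP-T. In 52 genes the response passed 0.01 in VCaP-CT alone (43 higher and 9 lower at 10 nM T), and in 11 in VCaP-T alone, each lower at 10 nM T. Without depleted VCaP-T replicate 2 these classes held 35, 77, 9, 91 and 21 genes. In that fit 25 of the 52 and 5 of the 11 stayed in their class, as more responses passed 0.01 in the other line, so the classes named for a single line depended on that library.

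**Figure D1:**
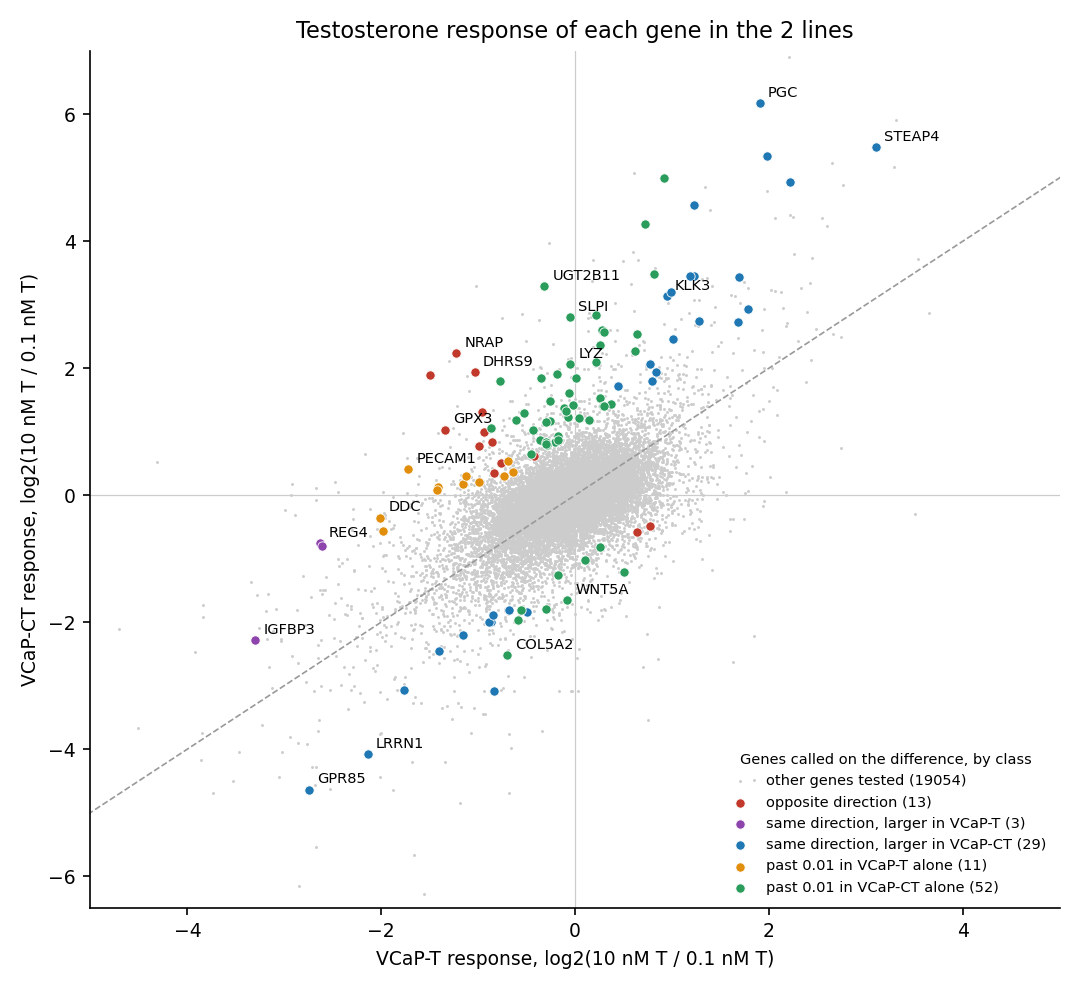
Each point is a gene, with its response in VCaP-T on the x axis and in VCaP-CT on the y axis, both as log2(10 nM T / 0.1 nM T); the dashed line marks equal responses, colors mark the classes of the 108 called genes, and 2 genes lie outside the plotted range. Most called genes lie above the dashed line, with 86 below 0 and 22 above 0 on VCaP-T minus VCaP-CT.

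Androgen-induced genes of the prostate that were called differed in the size of their response and not in its direction. Of 45 such genes tested, 27 in each line were higher at 10 nM T at an adjusted p under 0.01, against 3.83% of all genes in VCaP-T and 7.07% in VCaP-CT. KLK3, STEAP4 and HPGD were called on the difference, all below 0, against 0.449% of all genes, each with the larger response in VCaP-CT. The median difference of the list was -0.24, with median responses of 0.66 in VCaP-T and 0.88 in VCaP-CT.

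KLK3, which encodes prostate-specific antigen (ENSG00000142515.14, chromosome 19, 50854915 to 50860764 of GRCh38), had 79924, 78616 and 77771 normalized counts with 10 nM T in VCaP-T and 36874, 49273 and 36589 after depletion. In VCaP-CT it had 1652, 1659 and 1695 at 0.1 nM T and 14876, 14005 and 15053 after rechallenge. No libraries of different groups overlapped, and every VCaP-T library lay above every VCaP-CT library. The ratio of group means, 10 nM over 0.1 nM T, was 1.93 in VCaP-T and 8.77 in VCaP-CT, a difference in response of -2.19 (SE 0.15, adjusted p = 2.08e-05 from edgeR). On the scale of normalized counts the order was the other one, since the group means were 37858 apart in VCaP-T and 12976 apart in VCaP-CT. The lines stood 24.5-fold apart at 0.1 nM T and 5.38-fold apart at 10 nM T.

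The 250 bases before the RefSeq start of KLK3 (GRCh38.p14, plus strand, chr19:50854665-50854914) are shown because androgen is known to act on the KLK3 promoter. Capitals mark the letters AGAACA, a half-site of the palindromic androgen response element, whose first base lies 170 bases before the start.
KLK3: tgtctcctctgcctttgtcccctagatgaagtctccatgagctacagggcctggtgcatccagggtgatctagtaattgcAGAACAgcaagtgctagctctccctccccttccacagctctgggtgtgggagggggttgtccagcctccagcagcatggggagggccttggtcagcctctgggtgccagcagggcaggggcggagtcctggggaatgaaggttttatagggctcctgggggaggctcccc
On either strand AGAACA was present in 12.4% of 35116 promoter windows of this length and in those of 14.8% of 27305 genes. Among the 79 called genes with a window it was found for 18 (22.8%). A match of 6 letters describes the window, and binding to it was not measured in these data.

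STEAP4, a metalloreductase of the plasma membrane (ENSG00000127954.12, chromosome 7, 88270892 to 88306891), had 4455, 4605 and 4694 normalized counts with 10 nM T in VCaP-T and 600, 430 and 569 after depletion. VCaP-CT had 166, 134 and 142 at 0.1 nM T and 6657, 7012 and 6148 after rechallenge. The lowest and the highest libraries were thus both VCaP-CT, with the VCaP-T libraries between them. The ratio of means was 8.60 in VCaP-T and 44.8 in VCaP-CT (difference -2.38, SE 0.17, adjusted p = 2.93e-05 from edgeR). HPGD, which inactivates prostaglandins, rose with T from 35856 ± 3859 to 61170 ± 1697 in VCaP-T and from 1396 ± 101 to 5878 ± 394 in VCaP-CT (SD, n = 3 each; difference -1.30, SE 0.13, adjusted p = 0.000422 from edgeR). All 3 calls held with each of the 12 libraries left out in turn.

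Of the other androgen-induced genes, TMPRSS2, ACSL3 and INSIG1 passed the adjusted p with differences of less than 1 in size. TMPRSS2, a membrane protease, had ratios of 2.37 in VCaP-T and 3.65 in VCaP-CT (difference -0.62, SE 0.09, adjusted p = 0.00343 from edgeR). FKBP5 had a difference of -0.79 (SE 0.15, adjusted p = 0.0176 from edgeR). KLK2, a kallikrein protease beside KLK3, had ratios that differed by 0.08 on the log2 scale (SE 0.10), and ERG, the fusion partner of TMPRSS2 in these cells, by 0.00 (SE 0.12), neither of them called. ERG rose 2.18-fold with T in both lines. Without depleted VCaP-T replicate 2, 18 of the 45 genes had an adjusted p under 0.01 and a difference below 0, against 5.62% of all genes, and 2 above 0, against 1.77%.

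Androgen-repressed genes went both ways. Of 26 tested, 3 were called above 0, LRRN1 and CAMK2N1 among them, and DDC, PGC and UGT2B11 below 0, against 0.115% and 0.449% of all genes. The median difference of the list was -0.08. LRRN1, a leucine-rich repeat membrane protein of neurons, had ratios of 0.1 nM over 10 nM T of 4.45 in VCaP-T and 17.01 in VCaP-CT (difference 1.94, SE 0.30, adjusted p = 0.00515 from edgeR). CAMK2N1, an inhibitor of calcium/calmodulin-dependent kinase II, had ratios of 2.65 and 5.50 (difference 1.05, SE 0.18, adjusted p = 0.00806 from edgeR), and on the count scale the larger change was in VCaP-T. The call of LRRN1 was lost without any of 8 libraries, with an adjusted p of up to 0.0281, and that of CAMK2N1 without any of 11, with up to 0.0327.

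DDC, the aromatic amino acid decarboxylase (ENSG00000132437.17, chromosome 7, 50458436 to 50565457), had 1722, 1660 and 1780 normalized counts with 10 nM T in VCaP-T and 6300, 8459 and 6069 after depletion. VCaP-CT had 216, 215 and 227 at 0.1 nM T and 190, 164 and 162 after rechallenge. All VCaP-T libraries lay above all VCaP-CT libraries, and the rise at low T was 4.03-fold in VCaP-T. In VCaP-CT the response was -0.35 (SE 0.13, adjusted p = 0.0718 from edgeR), and the difference was -1.66 (SE 0.18, adjusted p = 0.000492 from edgeR). Beside it, the summed level of 10 neuroendocrine markers was 8642 to 8805 in VCaP-T at 10 nM T, 10336 to 11427 after depletion, 2484 to 2547 in VCaP-CT at 0.1 nM T and 2562 to 2891 after rechallenge, with CHGA and NEUROD1 at 3 counts or fewer in each library. Most of that sum came from CHGB, SCG3 and SYP in VCaP-T and from ENO2 and INSM1 in VCaP-CT. CHGB, a secretory granule protein, had means of 3073, 4293, 27.3 and 17.6 normalized counts in that order of groups. SCG3 had 2660, 3307, 155 and 230.0, and SYP had 1161, 1302, 233 and 358. NCAM1 and SCG2 were also lower in VCaP-CT. ENO2 was higher there, with 502, 667, 1562 and 880. INSM1 was highest in rechallenged VCaP-CT, with 872, 561, 451 and 1168. The part of these markers in the DDC result was not tested.

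PGC and UGT2B11 stand on the list of androgen-repressed genes but were higher at 10 nM T in VCaP-CT. PGC, the gastric protease precursor progastricsin, had 2055, 1861 and 1806 normalized counts with 10 nM T in VCaP-T and 478, 582 and 471 after depletion. VCaP-CT had 8, 1 and 2 raw counts at 0.1 nM T and a mean of 255 ± 50.1 normalized counts after rechallenge (SD, n = 3). The difference of -4.27 (SE 0.41, adjusted p = 0.000246 from edgeR) was the largest in size among the genes named here, and its size rests on those few counts. UGT2B11, a glucuronosyltransferase that shares close sequence with its family and is therefore uncertain, rose 10.1-fold with T in VCaP-CT, from 18, 11 and 8 raw counts. In VCaP-T it had a response of -0.32 (SE 0.20), and the difference was -3.61 (SE 0.31, adjusted p = 8.95e-05 from edgeR). In bulk RNA, fewer cells of a kind and less RNA per cell cannot be told apart.

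**Figure D2:**
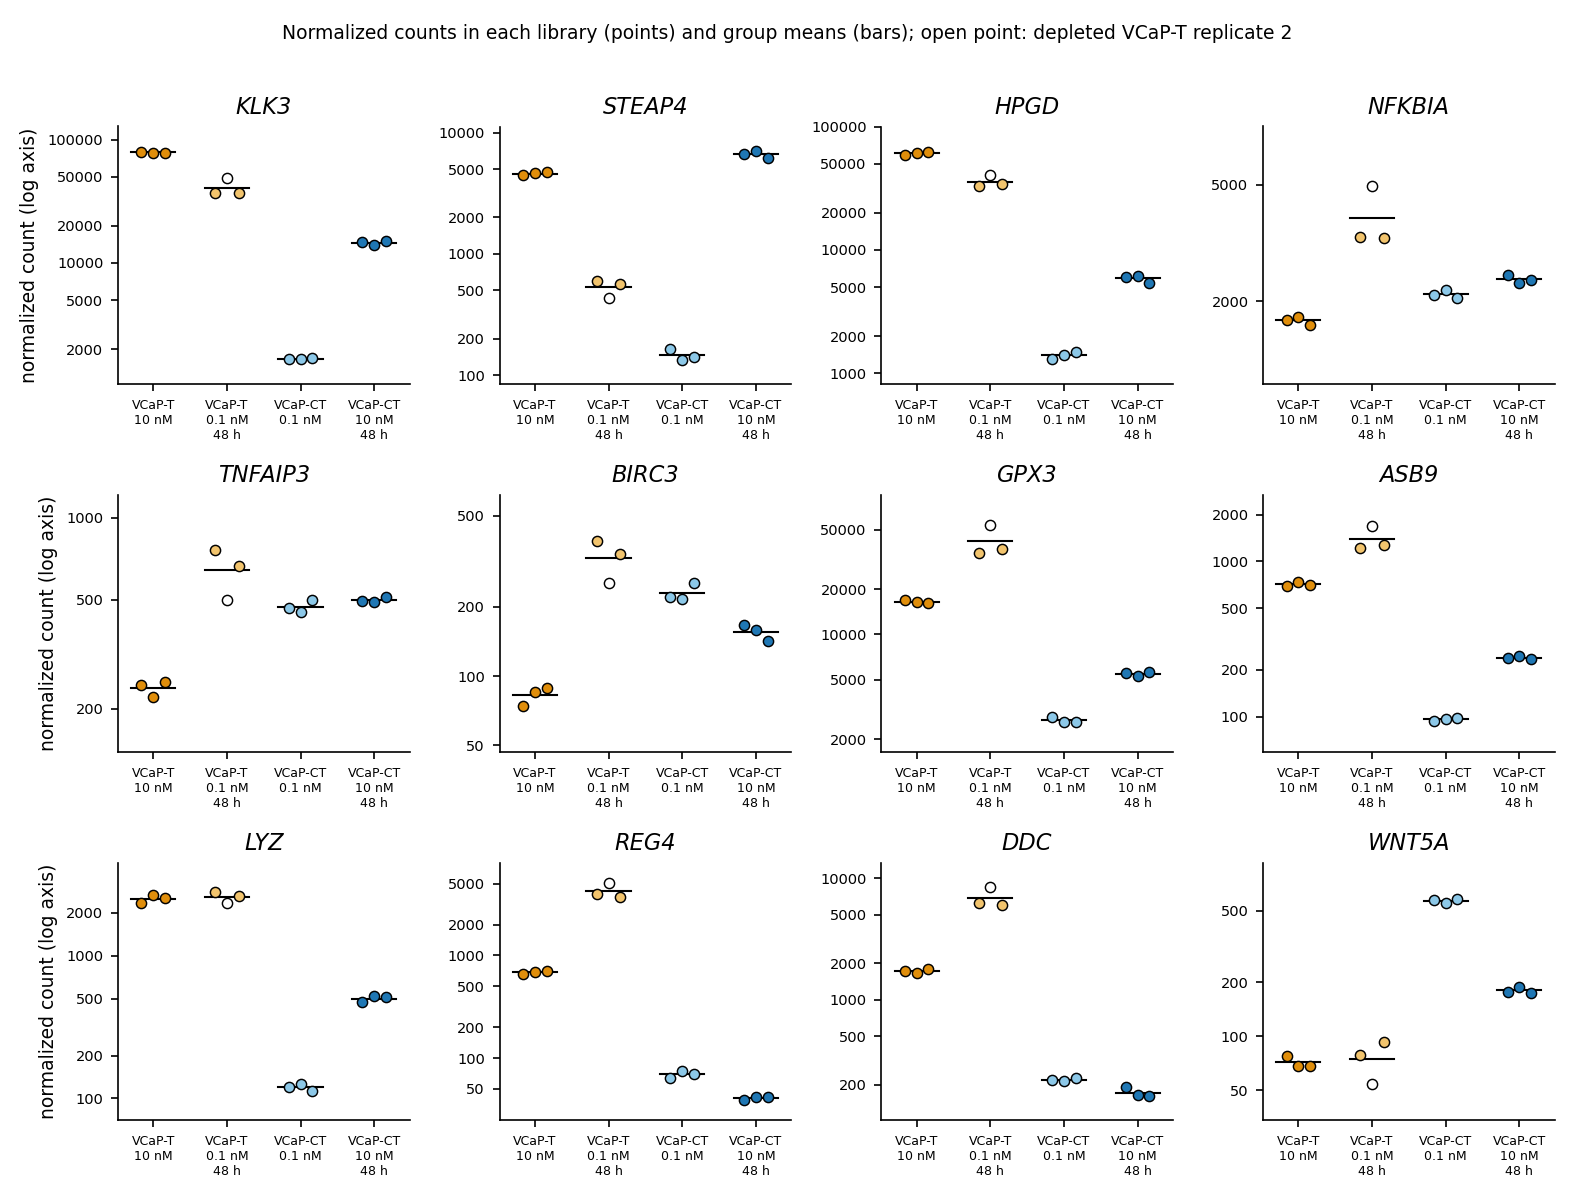
Normalized counts of 12 genes in each library on a log axis, with group means as bars; the 4 groups are VCaP-T at 10 nM T, VCaP-T after 48 h at 0.1 nM T, VCaP-CT at 0.1 nM T, then VCaP-CT after 48 h at 10 nM T, and the open point is depleted VCaP-T replicate 2. In KLK3, HPGD and LYZ every VCaP-T library lies above every VCaP-CT library, and for NFKBIA depleted VCaP-T replicate 2 (4932) is the highest.

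Genes of opposite direction were mostly higher at low T in VCaP-T and higher at high T in VCaP-CT. This held for 11 of the 13, and for 2, ADRA2A and PAQR5, which lie outside the rule for naming genes and were looked up after their values were seen, the reverse held. GPX3, a secreted glutathione peroxidase (ENSG00000211445.11, chromosome 5, 151020438 to 151028993), had 16902, 16548 and 16147 normalized counts with 10 nM T in VCaP-T and 35067, 53640 and 37321 after depletion. In VCaP-CT it had 2810, 2613 and 2625 at 0.1 nM T and 5552, 5260 and 5641 after rechallenge. The groups did not overlap in either line. GPX3 rose 2.54-fold on depletion in VCaP-T and 2.05-fold on rechallenge in VCaP-CT, a difference of -2.38 (SE 0.19, adjusted p = 5.17e-05 from edgeR).

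ASB9, a substrate receptor of a ubiquitin ligase, rose 1.95-fold on depletion in VCaP-T and 2.49-fold on rechallenge in VCaP-CT (difference -2.27, SE 0.17, adjusted p = 4.02e-05 from edgeR). DHRS9, a retinol and steroid dehydrogenase, and NRAP, an actin-binding protein of muscle, were near the floor in VCaP-CT at 0.1 nM T, with 2, 4 and 7 raw counts for DHRS9 and 3, 4 and 0 for NRAP. Both were lower at 10 nM T in VCaP-T, DHRS9 with 180 ± 14.7 against 369 ± 23.8 normalized counts and NRAP with 106 ± 12.1 against 248 ± 37.9 (SD, n = 3 each). Their differences were -2.97 (SE 0.37, adjusted p = 0.00142 from edgeR) and -3.46 (SE 0.55, adjusted p = 0.00558 from edgeR). DHRS9 was the only called gene among 21 tested for steroid synthesis and metabolism, against 0.564% of all genes.

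BCO1, which cleaves beta-carotene, had a difference of -1.70 (SE 0.23, adjusted p = 0.00202 from edgeR), BCL2L14, a BCL2 family member, -1.93 (SE 0.29, adjusted p = 0.00349 from edgeR) and ANG, the ribonuclease angiogenin, -1.76 (SE 0.25, adjusted p = 0.00307 from edgeR). ANG shares 61% of its exon length with another gene, so its reads are uncertain. The calls of GPX3, ASB9 and DHRS9 held with each of the 12 libraries left out. That of BCO1 was lost without replicate 1 of VCaP-T at 10 nM T or VCaP-CT at 0.1 nM T replicate 3 (adjusted p up to 0.0104), and those of NRAP, ANG and BCL2L14 without any of 9, 8 and 7 libraries (up to 0.0269, 0.0148 and 0.0172).

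Of 33 NF-kappaB signaling genes tested, NFKBIA, TNFAIP3 and BIRC3 were called, all below 0, against 0.449% of all genes, and the response of each passed the test in VCaP-T alone. NF-kappaB transcription factors drive inflammatory and survival genes, and these 3 targets themselves encode regulators of the pathway. The list had a median difference of -0.33, with median responses of -0.40 in VCaP-T and -0.06 in VCaP-CT. In VCaP-T 11 of 33 were lower at 10 nM T, against 6.15% of all genes, and in VCaP-CT 5 were lower, against 7.19%, and 3 higher. Without depleted replicate 2, 8 of the 33 had an adjusted p under 0.01 and a difference below 0, against 5.62% of all genes, and 0 above 0, against 1.77%.

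The promoters of these 3 genes are shown, 250 bases before each RefSeq start on GRCh38.p14, with matches to the kappaB consensus on either strand in capitals. The NFKBIA window is chr14:35404750-35404999 on the minus strand, that of TNFAIP3 chr6:137867009-137867258 on the plus strand and that of BIRC3 chr11:102317234-102317483 on the plus strand.
NFKBIA: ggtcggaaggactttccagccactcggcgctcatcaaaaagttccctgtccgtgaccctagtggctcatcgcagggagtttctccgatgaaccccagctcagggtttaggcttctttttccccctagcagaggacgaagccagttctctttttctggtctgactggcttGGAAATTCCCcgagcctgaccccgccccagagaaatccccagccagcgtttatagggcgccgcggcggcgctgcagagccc
TNFAIP3: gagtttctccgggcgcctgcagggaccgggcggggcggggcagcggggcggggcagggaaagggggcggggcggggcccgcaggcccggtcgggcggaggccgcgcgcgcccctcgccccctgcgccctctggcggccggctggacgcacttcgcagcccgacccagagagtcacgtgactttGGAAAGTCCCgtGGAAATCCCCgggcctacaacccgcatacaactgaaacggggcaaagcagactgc
BIRC3: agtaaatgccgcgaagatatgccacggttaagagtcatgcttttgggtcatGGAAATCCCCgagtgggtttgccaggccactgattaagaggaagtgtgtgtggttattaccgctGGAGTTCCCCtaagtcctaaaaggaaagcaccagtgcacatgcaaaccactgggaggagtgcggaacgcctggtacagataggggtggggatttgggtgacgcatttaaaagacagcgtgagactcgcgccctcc
The matches begin 81 bases before the start for NFKBIA, 67 and 55 for TNFAIP3, and 199 and 135 for BIRC3. The consensus was present in 5.21% of 35116 windows and for 6.28% of genes. It was found for 13 of 28 NF-kappaB genes tested that had a window (46.4%). These include the 3 called members and others that were not called, such as NFKB1 and REL. Of all called genes with a window 6 of 79 had it (7.59%). Of those past 0.01 in VCaP-T alone 4 of 10 had it (40%), namely these 3 and MAFF. The part of the matches in the differences was not tested.

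NFKBIA, the inhibitor that holds NF-kappaB in the cytoplasm (ENSG00000100906.10, chromosome 14, 35401511 to 35404749), had 1724, 1775 and 1667 normalized counts with 10 nM T in VCaP-T and 3325, 4932 and 3294 after depletion. VCaP-CT had 2105, 2189 and 2051 at 0.1 nM T and 2470, 2315 and 2364 after rechallenge. The depleted VCaP-T libraries were the highest, and the VCaP-CT groups lay between the VCaP-T groups. NFKBIA rose 2.24-fold on depletion in VCaP-T (adjusted p = 0.000103 from edgeR), VCaP-CT had a response of 0.17 (SE 0.13, adjusted p = 0.389 from edgeR), and the difference was -1.33 (SE 0.19, adjusted p = 0.00254 from edgeR).

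TNFAIP3, the deubiquitinase A20 that limits NF-kappaB signaling (chromosome 6, 137867188 to 137883312), had 245, 222 and 250 normalized counts with 10 nM T in VCaP-T and 759, 501 and 665 after depletion. VCaP-CT had 453 to 498 at 0.1 nM T and 491 to 511 after rechallenge, and these groups overlapped. The difference was -1.51 (SE 0.19, adjusted p = 0.0014 from edgeR), the response of VCaP-T was -1.43 (SE 0.13) and that of VCaP-CT 0.08 (SE 0.13).

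BIRC3, an inhibitor of apoptosis and ubiquitin ligase of the pathway, had 74.3, 85.6 and 88.8 normalized counts with 10 nM T in VCaP-T and 386, 256 and 340 after depletion. VCaP-CT had 231 ± 20.5 at 0.1 nM T and 156 ± 12.98 after rechallenge (SD, n = 3 each). BIRC3 rose 3.95-fold on depletion in VCaP-T. In VCaP-CT it was also lower at 10 nM T, with a response of -0.57 (SE 0.15, adjusted p = 0.0185 from edgeR) that fell short of 0.01. The difference was -1.42 (SE 0.22, adjusted p = 0.00497 from edgeR). The call of TNFAIP3 held with each library left out. Those of NFKBIA and BIRC3 were lost without any of 8 and of 10 libraries, with an adjusted p of up to 0.0136 and 0.0231. Interferon-stimulated genes, which share inflammatory regulators with this list, had 0 of 36 called on the difference by edgeR, against 0.564% of all genes. At an adjusted p under 0.01 alone they had 0, against 0.965%, and such shares leave little room for calls among 36 genes. Their median difference was -0.23. At an unadjusted p under 0.05 they held 11 genes, with no share of all genes given for that threshold. DESeq2, with 214 calls among all genes, called 0 of them, and limma-voom with quality weights, with 393, called 1.

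Of 40 apoptosis regulators tested, BIRC3 and BCL2L14 were called, against 0.564% of all genes. TNFSF10, the death ligand TRAIL, passed the adjusted p with a difference of -0.90 (SE 0.12, adjusted p = 0.00171 from edgeR) and was lower at 10 nM T in both lines.

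Secreted defense proteins had the lowest median difference of the 17 pathway lists, -0.71 over 20 tested genes, with median responses of -0.96 in VCaP-T and -0.14 in VCaP-CT. ANG, LYZ, REG4 and SLPI were called, all below 0, against 0.449% of all genes. LYZ, lysozyme (ENSG00000090382.6, chromosome 12, 69348341 to 69354234), had 2340, 2674 and 2524 normalized counts with 10 nM T in VCaP-T and 2819, 2360 and 2623 after depletion. VCaP-CT had 121, 127 and 112 at 0.1 nM T and 474, 519 and 513 after rechallenge. The VCaP-T groups overlapped and lay above the VCaP-CT groups, which did not overlap. LYZ rose 4.19-fold in VCaP-CT, the response of VCaP-T was -0.05 (SE 0.09), and the difference was -2.12 (SE 0.13, adjusted p = 1.25e-05 from edgeR). LYZ shares 34% of its exon length with another gene. It is also on the blood cell list, of whose other 9 markers 8 had 10 or fewer counts in each library.

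SLPI, a protease inhibitor of secretions, rose from 68.6 ± 11.4 to 482 ± 14.3 normalized counts in VCaP-CT on rechallenge. In VCaP-T it had 363, 366 and 351 at 10 nM T and 269, 595 and 264 after depletion (SD, n = 3). Depleted replicate 2 lay above every other VCaP-T library and its sisters below them. The difference was -2.86 (SE 0.38, adjusted p = 0.00196 from edgeR) and -2.37 without that library, called in both. The call was lost without VCaP-CT at 0.1 nM T replicate 1 or 3, with an adjusted p of up to 0.0105.

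REG4, a secreted lectin of the gut (ENSG00000134193.14, chromosome 1, 119794018 to 119811660), had 661, 695 and 698 normalized counts with 10 nM T in VCaP-T and 3973, 5034 and 3711 after depletion. VCaP-CT had 64.2, 74.8 and 69.1 at 0.1 nM T and 39.4, 41.6 and 41.6 after rechallenge. Both lines had more at low T, 6.19-fold in VCaP-T and 1.70-fold in VCaP-CT (difference -1.87, SE 0.19, adjusted p = 0.000412 from edgeR). REG4, KRT2 and IGFBP3 were the 3 genes that moved the same way with the larger response in VCaP-T. KRT2, an epidermal keratin, had a difference of -1.81 (SE 0.26, adjusted p = 0.00293 from edgeR).

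IGFBP3, a p53 target that binds insulin-like growth factors, rose at low T from 503 ± 31.3 to 4956 ± 193 normalized counts in VCaP-T and stood at 1853 ± 109 at 0.1 nM T and 380 ± 26.3 at 10 nM T in VCaP-CT (SD, n = 3 each). Its difference of -1.02 (SE 0.12, adjusted p = 0.000791 from edgeR) was at the edge of the threshold and -0.99, not called, without depleted replicate 2. Without any of 5 other libraries it was not called either, and the call of KRT2 was lost without any of 8 (adjusted p up to 0.0149). The call of REG4 held with each library left out.

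Of 37 p53 target genes tested, IGFBP3 and GDF15 were called and CDKN1A and TP53INP2 passed the adjusted p alone, all 4 below 0. Of all genes 0.449% were called below 0 and 0.804% passed the adjusted p below 0. GDF15, a stress-induced cytokine, had 6380, 5826 and 4767 normalized counts with 10 nM T in VCaP-T and 5324, 9698 and 5316 after depletion, so that depleted replicate 2 lay far above both groups. In VCaP-CT it rose 2.78-fold, from 1070 ± 56.8 to 2976 ± 174 (SD, n = 3 each). The difference was -1.74 (SE 0.28, adjusted p = 0.00678 from edgeR) and -1.39 without that library, called in both, and the call was lost without any of 9 others (adjusted p up to 0.029). CDKN1A, the cyclin-dependent kinase inhibitor p21, had a difference of -0.78 (SE 0.13, adjusted p = 0.00614 from edgeR). Cell cycle genes had 0 of 50 called and 0 at an adjusted p under 0.01 alone by edgeR. The shares of all genes were 0.564% and 0.965%, which leave little room for calls in a list of this size. At an unadjusted p under 0.05 edgeR gave 8 of the 50, with no share of all genes given for that threshold. DESeq2 and limma-voom, with 214 and 393 calls among all genes, called 0 of the 50. The median difference of the list was 0.01, with median responses of 0.28 in VCaP-T and 0.24 in VCaP-CT.

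Among the genes with the larger rise in VCaP-CT outside these lists, C22orf42 and SNAI2 were near the floor at 0.1 nM T in VCaP-CT, with 5, 4 and 2 raw counts and 3, 4 and 0. SNAI2, the transcription factor Slug of epithelial to mesenchymal change, had 200 ± 10.1 and 85.4 ± 2.09 normalized counts in VCaP-T at 10 and 0.1 nM T and 54.7 ± 8.24 in VCaP-CT after rechallenge (SD, n = 3 each). Its difference was -3.35 (SE 0.45, adjusted p = 0.00202 from edgeR), and the call was lost without VCaP-CT at 0.1 nM T replicate 1 (adjusted p up to 0.0124). C22orf42, an uncharacterized gene, reached with 10 nM T 148 ± 6.31 in VCaP-T and 143 ± 16.4 in VCaP-CT, and had 38.0 ± 8.18 in depleted VCaP-T, a difference of -3.37 (SE 0.34, adjusted p = 0.000363 from edgeR). RPL7AP75, a ribosomal protein pseudogene whose reads are uncertain, had a difference of -3.54 (SE 0.55, adjusted p = 0.00483 from edgeR), which was lost without any of 8 libraries (adjusted p up to 0.0187).

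IL20RA, a cytokine receptor chain, and MICAL1, a flavoprotein that severs actin, were higher at 10 nM T in VCaP-CT. IL20RA rose from 698 ± 22.6 to 1593 ± 69.6 normalized counts and MICAL1 from 473 ± 7.03 to 1113 ± 117 (SD, n = 3 each). In VCaP-T their responses were 0.14 (SE 0.08) and -0.08 (SE 0.10). The differences were -1.05 (SE 0.11, adjusted p = 0.000488 from edgeR) and -1.31 (SE 0.14, adjusted p = 0.000503 from edgeR). That of IL20RA was -0.98 and not called without depleted VCaP-T replicate 2. IL20RA was the only called member of 38 JAK-STAT genes and MICAL1 of 51 migration genes, against 0.564% of all genes.

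Genes of the matrix, vessels and WNT signaling included some with less RNA at 10 nM T in VCaP-CT. WNT5A, a WNT ligand (ENSG00000114251.14, chromosome 3, 55465715 to 55490539), had 77.5, 68.5 and 68.6 normalized counts with 10 nM T in VCaP-T and 78.5, 54.3 and 92.8 after depletion. VCaP-CT had 572, 551 and 582 at 0.1 nM T and 177, 189 and 175 after rechallenge. The VCaP-T groups overlapped, and both VCaP-CT groups lay above them. WNT5A fell 3.15-fold in VCaP-CT (difference 1.57, SE 0.22, adjusted p = 0.00237 from edgeR). It was the only called gene of 57 on the WNT, BMP and hedgehog list, against 0.564% of all genes.

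COL5A2, a fibrillar collagen, was 5.74-fold lower at 10 nM T in VCaP-CT and had a response of -0.70 (SE 0.18, adjusted p = 0.019 from edgeR) in VCaP-T, a difference of 1.81 (SE 0.24, adjusted p = 0.00194 from edgeR). Of 50 matrix genes tested 1 was called above 0 and 2 below 0, COL5A2 and FBN1 among them, against 0.115% and 0.449% of all genes. FBN1, fibrillin, had 271, 267 and 294 in VCaP-T at 10 nM T and 904, 482 and 827 after depletion, with 415 ± 35.5 and 454 ± 28.5 in VCaP-CT (difference -1.55, SE 0.26, adjusted p = 0.00845 from edgeR). Beside these, the summed level of 12 fibroblast and smooth muscle markers was 423 to 519 in VCaP-T at 10 nM T, 995 to 1163 after depletion, 1189 to 1286 in VCaP-CT at 0.1 nM T and 209 to 236 after rechallenge. In that order LUM had means of 20.5, 299.8, 886 and 65.9 and COL1A1 had 204, 382, 48.9 and 17.8, so LUM was highest in VCaP-CT at low T and COL1A1 in depleted VCaP-T. COL1A2, PDGFRA, MYH11 and THY1 had 2 or fewer counts in each library, and the part of such cells was not tested.

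PECAM1, an adhesion molecule of endothelium and platelets, had 36.1, 40.9 and 34.8 normalized counts with 10 nM T in VCaP-T and 119, 141 and 110 after depletion, and 68.4 ± 12.4 and 91.5 ± 16.99 in VCaP-CT at 0.1 and 10 nM T (SD, n = 3 each). The difference was -2.13 (SE 0.27, adjusted p = 0.00142 from edgeR). The summed level of 8 endothelial markers was 589 to 632, 619 to 656, 334 to 353 and 499.7 to 519 in VCaP-T at 10 nM T, depleted VCaP-T, VCaP-CT at 0.1 nM T and rechallenged VCaP-CT, with KDR at 0 in all libraries and CDH5 at 6 counts or fewer. In the same order VWF had means of 507, 405, 232 and 394 and ESAM 55.7, 88.9, 22.3 and 17.5. ADAMTS1, a secreted metalloprotease, had a difference of 1.72 (SE 0.24, adjusted p = 0.00277 from edgeR), with responses of 0.50 (SE 0.16) in VCaP-T and -1.22 (SE 0.18) in VCaP-CT. PECAM1 and ADAMTS1 were the called genes of 40 on blood vessel development, against 0.564% of all genes. The calls of COL5A2, PECAM1 and MICAL1 held with each library left out, those of WNT5A and ADAMTS1 were lost without any of 6 (adjusted p up to 0.0122 and 0.013), and that of FBN1 without any of 11 (up to 0.0349).

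Among genes with less RNA at 10 nM T in both lines and the larger response in VCaP-CT was SSTR5-AS1, an antisense RNA. Its ratios of 0.1 nM over 10 nM T were 1.78 in VCaP-T and 8.52 in VCaP-CT, with responses of -0.83 (SE 0.08) and -3.09 (SE 0.09). Its difference was 2.26 (SE 0.12, adjusted p = 7.2e-06 from edgeR), and its call held with each library left out. Since fragments were counted without strand and 22% of its exon length is shared, reads from the shared part cannot be told from those of the opposite gene, and its level is uncertain. GPR85, an orphan receptor of brain, had 6.76-fold more at low T in VCaP-T and 25.7-fold more in VCaP-CT (difference 1.89, SE 0.29, adjusted p = 0.00491 from edgeR). These ratios rest on few counts, with means at 10 nM T of 18.6 normalized counts in VCaP-T and 8.30 in VCaP-CT. The call was lost without any of 9 libraries (adjusted p up to 0.0234).

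Lipid genes moved by less than the threshold. Of 34 cholesterol genes 0 were called by edgeR, DESeq2 or limma-voom, against 0.564% of all genes by edgeR. In that list 4 passed the adjusted p, all 4 below 0, against 0.804% of all genes. At an unadjusted p under 0.05 there were 20, with no share of all genes given for that threshold. In VCaP-CT 20 of the 34 were higher at 10 nM T (7.07% of all genes) and in VCaP-T 9 were (3.83%), with median responses of 0.80 and 0.27. INSIG1, a sterol sensor that retains the SREBP complex, was 1.52-fold higher in VCaP-T and 2.92-fold in VCaP-CT (difference -0.94, SE 0.13, adjusted p = 0.00202 from edgeR). Without depleted replicate 2, 21 of the 34 had an adjusted p under 0.01 and a difference below 0, against 5.62% of all genes, still with 0 past the fold threshold. Of 40 fatty acid genes 0 were called by edgeR or DESeq2 and 1 by limma-voom, which called 393 of all genes. At an unadjusted p under 0.05 there were 13, again without a share of all genes. The adjusted p was passed by 4, all below 0, against 0.804% of all genes. They were acyl-CoA or acetyl-CoA synthetases, namely ACSL1, ACSL3, ACSL5 and ACSS2.

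The acyl-CoA synthetases differed in pattern. ACSL3 rose with T in both lines, 2.21-fold and 3.71-fold (difference -0.75, SE 0.10, adjusted p = 0.00212 from edgeR). ACSL1 rose in VCaP-CT alone by the test, with responses of 0.08 (SE 0.09) and 0.80 (SE 0.09). ACSL5 was lower at 10 nM T in VCaP-T, with responses of -0.95 (SE 0.06) and -0.12 (SE 0.06). Unfolded protein and ATF4 stress genes had 0 of 45 called by edgeR, DESeq2 or limma-voom, against 0.564% of all genes by edgeR. By edgeR these 45 had 0 past the adjusted p (0.965% of all genes). At an unadjusted p under 0.05 they had 20, with no share of all genes given for that threshold. Their median responses were 0.30 in VCaP-T and 0.54 in VCaP-CT, with 14 of 45 below 0 at an adjusted p under 0.01 without depleted replicate 2, against 5.62% of all genes.

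**Figure D3:**
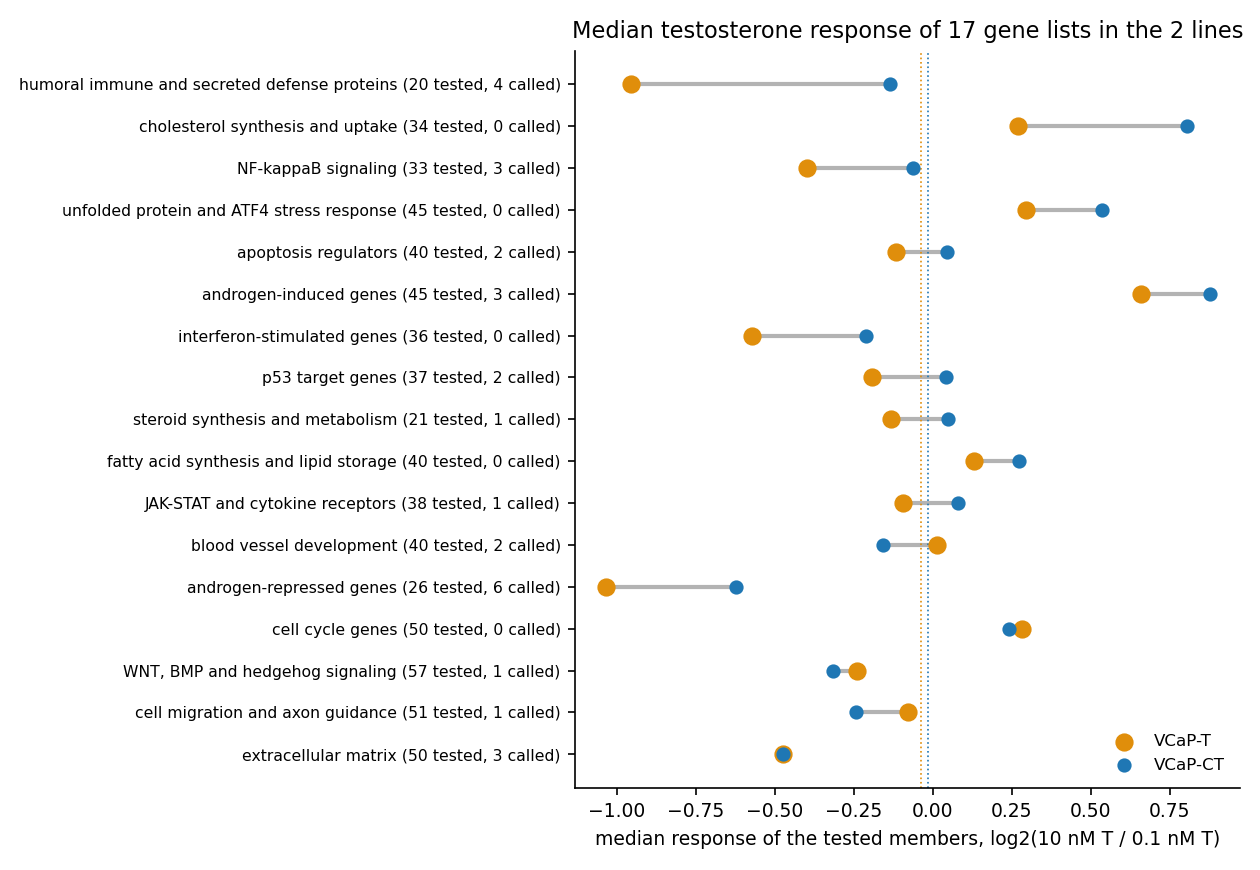
Median response of the tested members of 17 gene lists in VCaP-T (orange) and VCaP-CT (blue), as log2(10 nM T / 0.1 nM T); dotted lines mark the medians over all genes tested (-0.04 and -0.02), and lists are ordered by the median of their members' differences. The secreted defense proteins (-0.96 and -0.14) and the cholesterol genes (0.27 and 0.80) are the furthest apart. For blood vessel development the median of the differences (-0.11) has the other sign than the distance of the medians plotted.

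The lines stood further apart at 0.1 nM T than at 10 nM T for most called genes that rose with T more in VCaP-CT, and not in every class. Of the 43 genes higher at 10 nM T in VCaP-CT alone by the test, the lines differed (adjusted p under 0.01 and over 1 in size) at 0.1 nM T for 30 and at 10 nM T for 20, against 13.1% and 11.1% of all genes. VCaP-CT was lower for 29 of the 30 at 0.1 nM T, and for 10 of the 20 at 10 nM T. The median distance between the lines was 1.65 at 0.1 nM T and 0.89 at 10 nM T on the log2 scale. The difference in response is the line difference at 0.1 nM T minus that at 10 nM T. Choosing genes with a difference below 0 therefore places VCaP-CT lower, relative to VCaP-T, at 0.1 nM T than at 10 nM T. These counts and distances are thus tied to the call by its definition. They are a description, and the shares of all genes beside them do not measure an enrichment. For the 18 genes with the larger rise in VCaP-CT, the lines differed for 14 at 0.1 nM T (13 lower in VCaP-CT) and for 9 at 10 nM T. For the 11 genes of the response in VCaP-T alone the lines differed for 4 at 0.1 nM T and 5 at 10 nM T, with median distances of 0.84 and 0.91, and of the 11 genes with the larger fall in VCaP-CT 5 were further apart at 0.1 nM T. C22orf42 had a line difference of -3.41 at 0.1 nM T and -0.04 at 10 nM T, while KLK3 and HPGD kept -2.43 and -3.38 at 10 nM T.

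**Figure D4:**
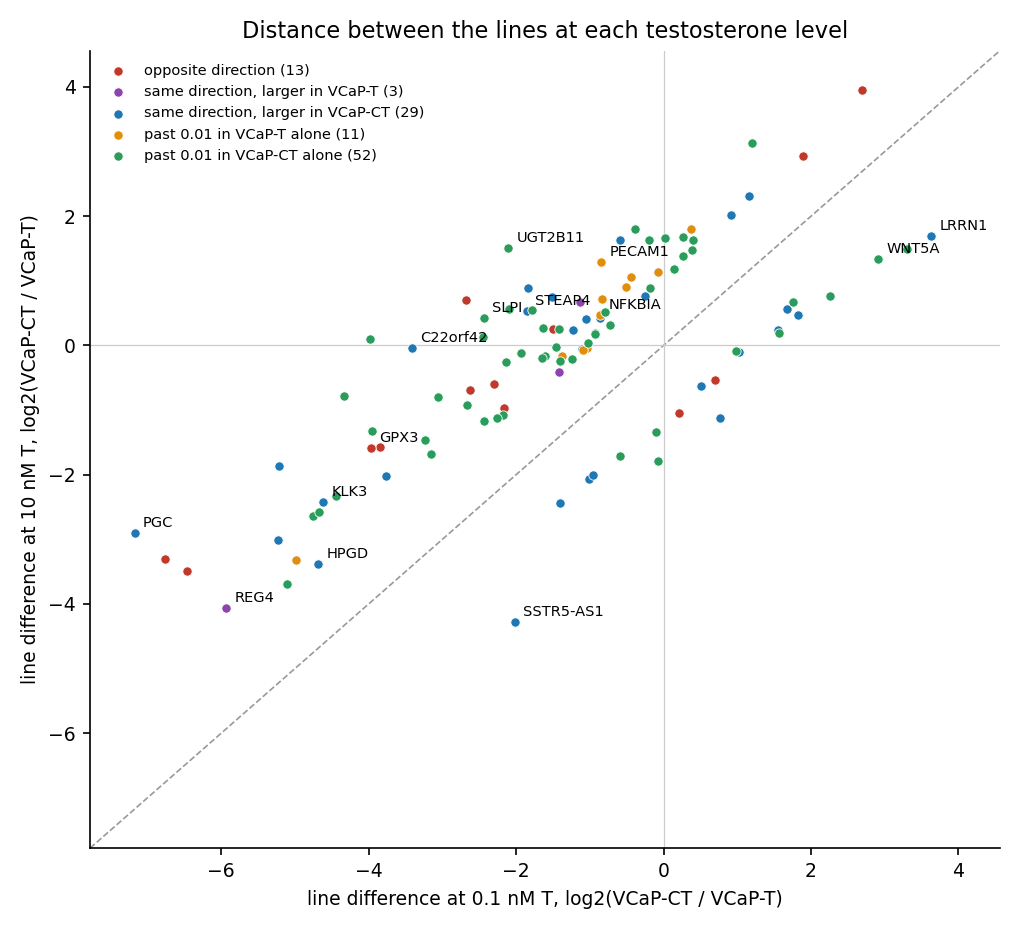
Line difference, log2(VCaP-CT / VCaP-T), at 0.1 nM T on the x axis and at 10 nM T on the y axis for the 108 called genes, colored by class; the dashed line marks equal distances, and the distance from it is the difference in response. C22orf42 lies near 0 on the y axis (-0.04) and at -3.41 on the x axis, and SSTR5-AS1 lies furthest below the dashed line.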

How the data were processed

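Polyadenylated RNA of 12 libraries was analyzed. The authors sequenced 75 bp paired-end reads of stranded mRNA libraries, used STAR 2.5.4b for alignment to GRCh38, and assigned fragments to genes (Gencode release 28) by featureCounts 1.6.2 regardless of strand. The count values were used as deposited. A deposited table of signal values, which the authors made with DESeq2 1.24.0 in R 3.6.1, equals each count divided by a size factor per library (largest relative deviation 5.11e-15). It holds 19742 of the 58381 genes and was used only to restrict the genes in an alternative. Fragments overlapping several genes can be lost or misplaced, so genes sharing over 20% of exon length were named as uncertain. Gene symbols came from a Gencode release 44 table, which matched 57754 genes.

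Counts were analyzed with edgeR 4.0.16 in R 4.3.3 (quasi-likelihood test, TMM scaling, default filter on low counts, 1 model of the 4 groups) and tables were made with Python 3.11.15. P-values were adjusted by Benjamini-Hochberg over all genes tested. Normalized counts are counts scaled by TMM library size to the mean library. Values after ± are SDs of 3 libraries and SE belongs to log2 values. Alternatives used limma 3.58.1 and DESeq2 1.42.0. Scripts were tested on simulated data. Same-numbered libraries of different groups did not deviate together (18 pairs, r of -0.168 to 0.0549), and numbers are not said to mark shared cultures, so no pairing was used.

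The genes, the 17 pathway lists and the 6 marker lists were chosen with earlier results of these data known. Genes were named by a rule, namely, with at least 100 normalized counts in a group and a symbol, the 3 with the largest difference in each class and direction, every called member of a list, and KLK3, KLK2, TMPRSS2, FKBP5 and ERG whatever their result. A few genes that the rule also takes are not reported here. Within lists, genes past the adjusted p alone were also named.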

Additional observations from a re-analysis of the deposited data

Results flagged for a closer look

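The test of the difference between the lines itself picked out each of the 36 named genes that passed its threshold, with values below as the log2 response in VCaP-T after subtraction of the one in VCaP-CT. No gene by gene search for outlying libraries was made within the groups of 3.

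Among genes whose lines moved in opposite directions the differences were -3.46 for NRAP, -2.97 for DHRS9, -2.27 for ASB9, -2.38 for GPX3, -1.76 for ANG, -1.70 for BCO1 and -1.93 for BCL2L14. Where both lines had less RNA at 10 nM T, REG4 differed by -1.87, KRT2 by -1.81 and IGFBP3 by -1.02 with the larger response in VCaP-T, and SSTR5-AS1 by 2.26, LRRN1 by 1.94, GPR85 by 1.89 and CAMK2N1 by 1.05 with the larger response in VCaP-CT. Where both had more at 10 nM T, PGC differed by -4.27, C22orf42 by -3.37, SNAI2 by -3.35, KLK3 by -2.19, STEAP4 by -2.38 and HPGD by -1.30.

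Genes with a response past 0.01 in VCaP-T alone differed by -2.13 (PECAM1), -1.66 (DDC), -1.55 (FBN1), -1.33 (NFKBIA), -1.51 (TNFAIP3) and -1.42 (BIRC3). With such a response in VCaP-CT alone, UGT2B11 differed by -3.61, RPL7AP75 by -3.54, SLPI by -2.86, IL20RA by -1.05, LYZ by -2.12, GDF15 by -1.74 and MICAL1 by -1.31, and on the other side COL5A2 by 1.81, ADAMTS1 by 1.72 and WNT5A by 1.57. A sign on the log2 scale need not hold on the scale of normalized counts: 11 of the 108 called genes had the other sign there, among the named ones KLK3, HPGD, PGC, SNAI2, CAMK2N1 and SSTR5-AS1.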

How the results depend on the processing

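Of the 108 genes with a called difference (22 above 0 and 86 below 0), 106 were also called by edgeR with RLE size factors (106 calls), and robust estimation, the 1 CPM filter, the authors' gene table and a further limit on the difference of group medians gave 107, 108, 95 and 108 calls. DESeq2 called 214 genes, 65 above 0 and 149 below 0, with 20 in opposite directions, 8 in the same direction and larger in VCaP-T, 49 in the same direction and larger in VCaP-CT, 26 past 0.01 in VCaP-T alone and 106 in VCaP-CT alone. In that order of classes, limma-voom with quality weights called 393 genes (127 above, 266 below; 48, 10, 103, 71 and 153), with 1015 genes for the VCaP-T response, 47 list members and an ERG difference of -0.11. Without a low-count filter there were 172 calls, 47 of them above 0, 5 larger in VCaP-T, 21 in VCaP-T alone and 95 in VCaP-CT alone. Without the fold threshold there were 185 calls, 154 below 0, 7 larger in VCaP-T, 27 in VCaP-T alone and 91 in VCaP-CT alone, and the counts were 1911 and 2732 for the responses of VCaP-T and VCaP-CT and 4828 and 5647 for the line difference at 10 and 0.1 nM T. At an adjusted p under 0.05 there were 212 calls (62 above, 150 below; 33, 7, 61, 24 and 87). The replicate numbers of the groups share only a number: same-numbered libraries deviated from their group means with correlations from -0.168 to 0.0549, and the fit with the number as a block called 64 genes, 10 above 0 and 54 below 0, with 5 opposite, 17 larger in VCaP-CT, 7 in VCaP-T alone and 33 in VCaP-CT alone. Leaving out each library in turn gave 55 to 234 calls, 8 to 66 above 0 and 46 to 168 below 0. The count was 58, 56 and 71 without each VCaP-T library at 10 nM T, 124, 234 and 104 without each depleted VCaP-T library, 55, 62 and 58 without each VCaP-CT library at 0.1 nM T, and 64, 64 and 68 without each rechallenged library. The classes, in the order above, ranged from 3 to 35, 0 to 9, 15 to 77, 4 to 21 and 27 to 91, and list members from 15 to 37. The responses ranged from 412 to 773 genes in VCaP-T and 837 to 1338 in VCaP-CT, and the line difference from 1833 to 2547 at 10 nM T and 2222 to 2716 at 0.1 nM T. Of the 36 named genes with a called difference, 17 kept the call with each library left out and 19 lost it at least once. The ERG difference, which was not called, ranged from -0.089 to 0.054. Fewer libraries and the block both leave fewer residual degrees of freedom; the cause of the other changes in count was not tested.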

Other observations

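Called genes lay near each other more often than genes at large, as a description of position with no test. Of 766 tested genes within 300 kb of another called gene, 22 were called, which is 2.87% against 0.564% of all genes tested, and they lay in 9 loci. The genes below were chosen for their position after their values were seen. Neighbours can share reads or regulation, which was not tested.

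The locus with the most called genes was on chromosome 22, between 32043032 and 32277186 of GRCh38, with SLC5A1, C22orf42, RFPL2 and ENSG00000224050, all higher at 10 nM T in both lines with the larger response in VCaP-CT. The difference of ENSG00000224050 was -0.94 and not called without depleted VCaP-T replicate 2. SLC5A1, the intestinal glucose transporter, had responses of 2.22 in VCaP-T and 4.94 in VCaP-CT. It was near the floor at low T, with 3, 2 and 2 raw counts in VCaP-CT at 0.1 nM T and a mean of 8.07 normalized counts in depleted VCaP-T. RFPL2 had 1.28 and 2.75. SLC5A4, between RFPL2 and ENSG00000224050, had 2.49 and 2.62 and was not called on the difference of -0.13. The genes of the locus thus rose together with T while their differences between the lines were unequal.

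On chromosome 16, LINC00920, BEAN1 and CMTM3 rose with T in both lines, LINC00920 with responses of 1.23 in VCaP-T and 3.45 in VCaP-CT. The difference of CMTM3 was -0.87 and not called without depleted VCaP-T replicate 2. On chromosome 5, AMACR, the racemase of branched-chain fatty acids used as a prostate cancer marker, had responses of 1.79 and 2.94. It shares 64.8% of its exon length with another gene and its reads are uncertain.

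H2BC11, a histone gene on chromosome 6, had 107 and 108 normalized counts for VCaP-T at 10 and 0.1 nM T and 92.7 and 334 in VCaP-CT at 0.1 and 10 nM T, a difference of -1.84. The neighbouring ENSG00000272468 (31.4, 40.7, 30.9 and 111 in the same order) and LINC00240 (81.1, 105, 138 and 252) were called with the same sign.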
